A study of Homo sapiens with 10 samples.

Results

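The genes of the J-domain proteins and of the heat shock proteins encode the chaperones that fold, refold and sort proteins in every compartment of the cell. They were taken here as the 73 protein-coding RefSeq genes, of 20037 on chromosomes 1 to 22, X and Y, whose symbol begins DNAJA, DNAJB, DNAJC, HSPA, HSPB, HSPD1, HSPE1, HSPH1, HSP90A or HSP90B, and each was described by the WDR5 and EMBOW summits near it. The members were 4 DNAJA, 12 DNAJB, 29 DNAJC, 14 HSPA and 7 HSPB genes, HSPD1, HSPH1, HSP90B1, 2 HSP90A genes and 2 genes of the HSPE1 name. Among them, DNAJC25-GNG10 and HSPE1-MOB4 are readthrough genes that share their start with DNAJC25 and HSPE1. The study mapped proteins on chromatin by immunoprecipitation and sequencing (ChIP-seq) in the human embryonic kidney line HEK293T, which expresses the large T antigen of SV40. WDR5, a scaffold of the complexes that methylate histone H3 at lysine 4, was precipitated from wild-type (WT) HEK293T cells and from HEK293T cells with a knockout (KO) of EMBOW, a microprotein that binds WDR5. EMBOW itself was precipitated on anti-FLAG beads from HEK293T cells that stably express a tagged form, EMBOW-FH, and this list is called EMBOW-F. All groups were grown in the same medium with no treatment named, in particular no heat shock, and the sources used here do not say whether the knockout line is 1 clone.

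Heat shock proteins of the HSPA (Hsp70) family bind exposed stretches of unfolded proteins in a cycle driven by ATP. J-domain proteins bring the substrate and stimulate the ATPase of the Hsp70 partner, HSPH1 and its relatives exchange the nucleotide, HSP90 proteins finish the folding of kinases and hormone receptors, HSPD1 and HSPE1 form the folding chamber of mitochondria, and the small heat shock proteins (HSPB) hold unfolded proteins without ATP. Many of these genes answer to heat shock factors, which bind inverted repeats of GAA in their promoters, and those of the endoplasmic reticulum answer to the unfolded protein response through a bipartite ER stress element.

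The promoters printed next are shown because WDR5 summits were called beside most of them and because they hold elements these genes are known for. All are from RefSeq (GRCh38.p14) and read 5′ to 3′ on the strand of the gene. HSPA5, the Hsp70 of the endoplasmic reticulum, and HSP90B1, its HSP90, both hold the ER stress element (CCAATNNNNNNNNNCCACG, either strand, in capitals) in the 250 bases before the start. They lie at chr9:125241344-125241593 and chr12:103930160-103930409, and the second window overlaps the pseudogene TTC41P.
HSPA5: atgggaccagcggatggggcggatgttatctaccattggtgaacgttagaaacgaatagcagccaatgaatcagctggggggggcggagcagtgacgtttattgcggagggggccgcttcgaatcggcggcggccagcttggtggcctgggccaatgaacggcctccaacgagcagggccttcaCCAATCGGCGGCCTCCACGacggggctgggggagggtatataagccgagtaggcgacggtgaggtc
HSP90B1: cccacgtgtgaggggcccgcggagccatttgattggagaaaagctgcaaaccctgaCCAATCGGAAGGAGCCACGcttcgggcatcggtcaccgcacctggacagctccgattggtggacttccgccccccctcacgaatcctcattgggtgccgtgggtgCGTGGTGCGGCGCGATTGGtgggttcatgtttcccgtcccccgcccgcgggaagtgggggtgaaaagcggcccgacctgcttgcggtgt
The genes of the mitochondrial chaperonin, HSPD1 and its co-chaperonin HSPE1, face away from each other across a gap of 104 bases, chr2:197500275-197500378, given here on the strand of HSPE1 with its E-box (CACGTG) in capitals.
HSPD1 to HSPE1: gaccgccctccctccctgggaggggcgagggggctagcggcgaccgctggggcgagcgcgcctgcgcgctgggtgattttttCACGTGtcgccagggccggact
HSPA1A (chr6:31815293-31815542) and HSPA1B (chr6:31827488-31827737), the heat-inducible Hsp70 pair, have nearly the same promoter, with CCAAT boxes and the core of a heat shock element (GAANNTTC or TTCNNGAA) in capitals. Of 249 aligned bases 235 were identical (94.4%), with 2 gap positions.
HSPA1A: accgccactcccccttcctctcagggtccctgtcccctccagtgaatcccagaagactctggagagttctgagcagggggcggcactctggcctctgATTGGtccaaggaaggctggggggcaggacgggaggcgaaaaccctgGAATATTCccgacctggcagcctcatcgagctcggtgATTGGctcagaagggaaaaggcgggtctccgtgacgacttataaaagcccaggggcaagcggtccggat
HSPA1B: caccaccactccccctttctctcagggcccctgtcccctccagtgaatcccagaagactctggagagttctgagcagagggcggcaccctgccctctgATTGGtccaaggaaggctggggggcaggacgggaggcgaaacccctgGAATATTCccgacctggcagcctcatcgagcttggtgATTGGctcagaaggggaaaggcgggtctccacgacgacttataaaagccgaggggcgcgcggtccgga

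WDR5 summits were called at most of the chaperone genes in both genotypes. In WT, 48 of 73 members (65.8%, exact 95% interval 53.7 to 76.5%) had a summit within 1 kb of a gene end, against 50.0% of all protein-coding genes. In KO, 51 members did (69.9%, 58.0 to 80.1%), against 53.4% of all genes. Summits of both genotypes marked 45 members (61.6%, 49.5 to 72.8%; 46.4% of all genes). A further 6 members had a summit in KO but not in WT (8.22%, 3.08 to 17.0%; 6.99% of all genes), and 3 in WT and not in KO (4.11%, 0.856 to 11.5%; 3.51% of all genes). The single-genotype shares were near the background. The shares marked in WT, in KO and in both were above it. The intervals treat members as independent, but members can share a summit, and the highest summits behind these counts were 45 distinct ones in WT and 48 in KO. Neither list marked 19 members (26.0%, 16.5 to 37.6%), against 43.1% of all genes. EMBOW-F marked none. Each group was 1 library, so no difference here has a replicate check, and the intervals cover counting error only.

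Counting at annotated starts of transcription gave a similar picture. For the 66 members with a start in the RefSeq promoter table, 45 had a WT summit within 1 kb of one (68.2%, against 54.6% of 15843 genes) and 48 a KO summit (72.7%, against 58.1%). Of these 43 were the same genes (65.2%, against 51.2%), and 16 had neither (24.2%, against 38.5%). None had an EMBOW-F summit that close (1.09% of all genes). When only summits with a q of 1e-05 or less were kept, WT marked 42 members at gene ends (57.5%, against 39.7%) and KO 43 (58.9%, against 44.5%), with 37 in both (50.7%, against 34.9%) and 25 in neither (34.2%, against 50.8%). At that q 6 members were marked in KO alone (8.22%, against 9.55%), 5 in WT alone (6.85%, against 4.78%) and none in EMBOW-F (0.190%). By either way of counting, members were marked more often than genes in general, and single-genotype members were about as frequent as elsewhere.

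Counts by family rest on few genes. Among J-domain genes, 30 of 45 were marked in WT and 33 in KO, beside 50.0% and 53.4% of all genes. By family these were 3 and 3 of 4 DNAJA genes, 6 and 9 of 12 DNAJB genes, and 21 and 21 of 29 DNAJC genes. Among heat shock protein genes, 18 of 28 were marked in each genotype. The HSPA family stood at 10 of 14 in WT and 10 in KO, with 9 genes common to both. All 7 genes of HSPD1, HSPE1, HSPH1, HSP90A and HSP90B were marked in both genotypes, and 1 of 7 HSPB genes was. In WT the exact intervals overlapped widely for DNAJA (19.4 to 99.4%), DNAJB (21.1 to 78.9%), DNAJC (52.8 to 87.3%) and HSPA (41.9 to 91.6%). That of HSPB, 0.361 to 57.9%, overlapped that of DNAJC only from 52.8 to 57.9%. No difference between families was tested.

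**Figure D1:**
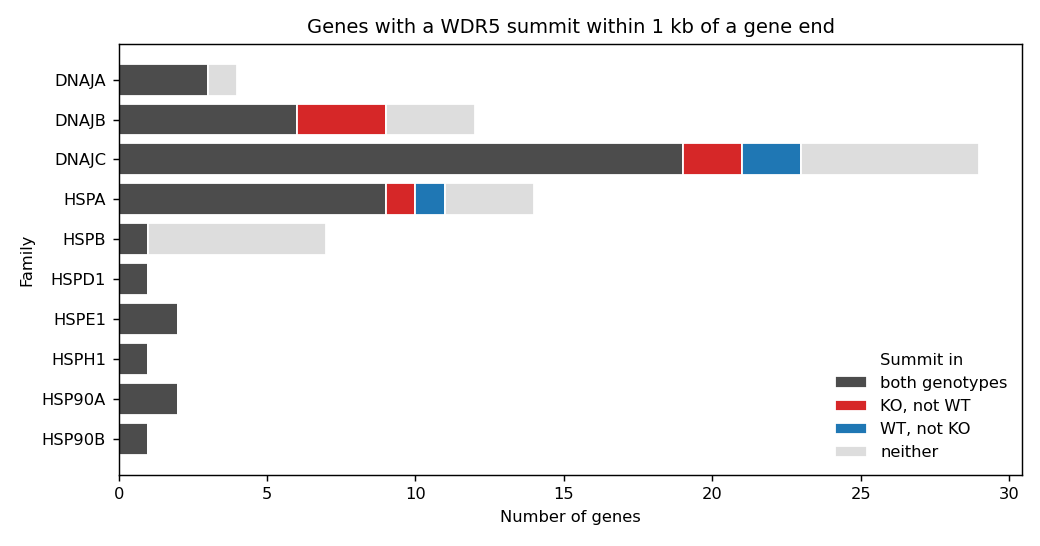
Number of genes (x axis) in each family (y axis) with a WDR5 summit within 1 kb of a gene end in both genotypes, in KO and not WT, in WT and not KO, or in neither. The HSPB bar is mostly unmarked (1 of 7 marked), while all 7 genes of the 5 families at the bottom were marked in both genotypes.

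Of the members, 44 were also grouped by where the proteins work or are made, with lists drawn up after the values were seen, so the counts describe these genes and carry no comparison between groups. The share over all genes was 50.0% in WT and 53.4% in KO. Of 8 constitutive cytosolic chaperones, all 8 were marked in both genotypes. Of 8 chaperones of the endoplasmic reticulum, 7 were marked in WT and 8 in KO. The lists by compartment are not complete. DNAJB12, of the endoplasmic reticulum membrane, was left out of that list and was marked in both genotypes. Of 8 mitochondrial ones, 6 were marked in WT and 8 in KO, and of 8 heat-inducible cytosolic ones 6 and 7. None of 7 genes known for expression in germ cells (DNAJB7, DNAJB8, DNAJB13, DNAJC5B, DNAJC5G, HSPA1L and HSPB9) and none of 5 small heat shock protein genes known from muscle (HSPB2, HSPB3, HSPB6, HSPB7 and HSPB8) was marked in either genotype. HSPA2, which is known from spermatogenesis too, was not in the germ cell list, and it had a gene-end summit in KO and summits of both genotypes at its RefSeq start.

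The Hsp70 genes held the highest-ranked summit of the whole set. Scores are the authors' −log10 q per summit, and a score or rank places a summit within its own list of 17660 (WT) or 21055 (KO) summits, so that values of WT and KO are not on a common scale. HSPA4 (chromosome 5, 133052013 to 133106449), a cytosolic Hsp110-type nucleotide exchange factor, had its WT summit 471 bp and its KO summit 466 bp inside the gene. These ranked 400 in WT (−log10 q 35.5) and 375 in KO (43.2) and lay 5 bp apart. HSPA9, the mitochondrial Hsp70 (mortalin), ranked 2669 in WT (15.4) and 664 in KO (32.7), with summits 46 bp apart. HSPA5 (BiP), whose ER stress element is printed above, ranked 2238 in WT (16.7) and 1670 in KO (22.1), with summits 309 and 345 bp inside the gene. At all 3 genes the highest summits of the genotypes fell within 50 bp of each other, downstream of the start. HSPA5 and HSPA9 also had a lower-scoring summit upstream of the start in each genotype.

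HSPA8, the constitutive cytosolic Hsp70 (Hsc70), had 2 summits at its 5′ end in each genotype. The upstream one ranked higher, at 5869 in WT (9.50) and 2405 in KO (18.7), and the other lay inside the gene, 302 bp after the RefSeq start in WT and 287 bp after it in KO. HSPA4L, a relative of HSPA4, ranked 7557 in WT (7.64) and 4789 in KO (12.8), at 42 and 57 bp after the start. HSPA14, which assists newly made chains at the ribosome, ranked 4704 (11.0) and 7507 (9.04), with summits 50 bp apart that also lay within 1 kb of CDNF and MSANTD7. HSPA13, an Hsp70 of the microsomal lumen, carried weak summits, with a −log10 q of 1.50 in WT (rank 17464) and 5.44 in KO (rank 11957), 13 bp apart. Of these genes HSPA13 was nearest to the floor of the lists, which lay at a −log10 q of 1.31 in WT and 1.30 in KO.

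The inducible Hsp70 genes could not all be read with the same certainty. HSPA1B (chromosome 6, 31827738 to 31830254) had a summit 175 bp after its start in WT (−log10 q 7.71) and 206 bp after it in KO (9.75), and a higher one near its 3′ end in both genotypes (9.66 and 12.3). HSPA1A, its copy with the 94.4% identical promoter, had no summit within 1 kb, and its nearest lay 3781 bp away in WT and 2489 bp in KO. The sources used here do not say how reads that fit both copies were placed, so the difference between the copies is uncertain. HSPA1L, a germ cell Hsp70 that faces away from HSPA1A, had its nearest summit 2829 bp away in WT and 1915 bp in KO. HSPA6, a strictly heat-inducible Hsp70 with a closely similar pseudogene nearby, is uncertain for the same reason. It had a WT summit 34 bp before its start (−log10 q 10.4, rank 5177) and a KO summit 220 bp before it (1.83, rank 20303), both also within 1 kb of FCGR2A. HSPA6 was thus marked in both genotypes, with its KO summit at percentile 3.58 of that list.

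The remaining HSPA genes turned on which end was counted. HSPA2, an Hsp70 of spermatogenesis, had a KO summit 590 bp from its 3′ end (−log10 q 3.44) and no WT gene-end summit. Its RefSeq start, at 64540741 on chromosome 14, lies inside the annotated gene, and there both genotypes had summits after the start, 274 bp in WT (3.96) and 168 bp in KO (2.67). Others lay before it, at 64540078 in WT (3.71) and 64539827 in KO (9.32). HSPA12A, a distant Hsp70 relative, had a WT summit 796 bp from its gene end (5.44) and its nearest KO summit at 1532 bp. Near its RefSeq starts both genotypes had summits, of 9.94 in WT and 9.28 in KO at its outer start. Counted at starts, neither gene was marked in a single genotype. HSPA12B had no gene-end summit, with the nearest 15446 bp away in WT and 3038 bp in KO.

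The chaperonin pair shared its summits. HSPD1, HSPE1 and the readthrough HSPE1-MOB4 had the same highest summit, at 197499683 in WT (−log10 q 20.1, rank 1500) and 197499731 in KO (23.4, rank 1466), 48 bp apart and inside HSPD1. On the HSPE1 side of the gap a further summit was called at 197500583 in WT (rank 2561) and 197500544 in KO (rank 4129). The printed gap of 104 bases thus lay between summits of both genotypes and itself held none. These 3 members are 1 site and not 3 separate observations.

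HSPH1 (Hsp105), the heat-inducible nucleotide exchange factor, had summits 756 bp after its start in WT (−log10 q 12.5, rank 3911) and 702 bp after it in KO (19.5, rank 2180). In both genotypes its nearest summit lay farther from a RefSeq start than that of any other member marked at one. HSP90B1 (Grp94), whose promoter is printed above, had weak summits 135 bp after its start in WT (2.57, rank 15898) and 169 bp after it in KO (4.74, rank 13376). HSP90AB1, the constitutive cytosolic HSP90, had summits 431 bp inside its gene end in WT (7.71) and 94 bp in KO (5.89). Higher summits lay at its internal starts, at 44247651 in WT (13.4) and 44247341 in KO (10.5). HSP90AA1, the inducible cytosolic HSP90, was arranged in the same way. At its outermost start the highest summit had a −log10 q of 8.24 in WT and 18.7 in KO. At the internal start, 102087044 on chromosome 14, it had 18.3 in WT, 306 bp after that start, and 24.4 in KO, 263 bp after it. For both cytosolic HSP90 genes the highest summit was therefore at a start that a rule on gene ends leaves out.

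Runs of heat shock units lie at these internal starts of the HSP90 genes. A run of 3 heat shock units (GAANNTTCNNGAA or TTCNNGAANNTTC) was found in the 300 bases around a RefSeq start, from 250 before it, in 7 of the 66 members in the promoter table (10.6%) and in 0.537% of all 15843 genes in it. HSPB2, DNAJC1, DNAJC5B, DNAJC22, HSPA12B, HSPA14 and DNAJC24 are not in the table. The runs of all 7 are shown with flanks, runs in capitals, and GRCh38.p14 positions. They lie at chr9:33025268-33025296 (DNAJA1), chr7:157336865-157336893 (DNAJB6), chr14:102087112-102087140 (HSP90AA1), chr6:44247770-44247798 and chr6:44247823-44247851 (HSP90AB1), chr1:161524458-161524486 (HSPA6), chr11:123062346-123062374 and chr11:123062171-123062199 (HSPA8) and chr2:197500062-197500090 (HSPD1, where runs overlap).
DNAJA1: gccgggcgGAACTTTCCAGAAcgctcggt
DNAJB6: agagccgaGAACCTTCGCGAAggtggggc
HSP90AA1: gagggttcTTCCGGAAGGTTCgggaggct
HSP90AB1, upstream run: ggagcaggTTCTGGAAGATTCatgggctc
HSP90AB1, downstream run: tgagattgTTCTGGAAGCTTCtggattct
HSPA6: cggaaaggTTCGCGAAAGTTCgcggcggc
HSPA8, upstream run: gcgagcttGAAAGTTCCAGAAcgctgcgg
HSPA8, downstream run: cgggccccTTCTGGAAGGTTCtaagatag
HSPD1: gcattTTCTGGAAAGTTCTGGAAccgagc
All 7 genes had a WDR5 summit within 1 kb of a RefSeq start in both genotypes, beside 65.2% of the 66 members and 51.2% of all genes. The run was chosen after values were seen, and a link between runs and summits was not tested. The shorter core, GAANNTTC or TTCNNGAA, was in 22 of 66 members (33.3%) and 14.9% of all genes, and it overlaps the run. The ER stress element was in HSPA5 and HSP90B1 (3.03% of members, 0.133% of all genes), and it overlaps the CCAAT box. The CCAAT box itself (40.9% against 42.1%) and the E-box (13.6% against 10.9%) were about as frequent as elsewhere. A match describes letters in a window and does not show that a factor binds there.

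DNAJA genes encode the classical J-domain partners of Hsp70, relatives of bacterial DnaJ. DNAJA1, with its heat shock run at the start, had its highest WT summit at 33024650 on chromosome 9 (−log10 q 13.6, rank 3365) and its highest KO summit at 33024948 (31.6, rank 725). They were 298 bp apart, upstream of the start and within 1 kb of the neighbouring gene APTX. A second WT summit (12.3) lay 138 bp after the start. DNAJA2 ranked 4623 in WT (11.3) and 2351 in KO (18.8), with highest summits 466 bp apart, and DNAJA3, the mitochondrial member, ranked 8738 (6.60) and 6468 (10.3), with highest summits 780 bp apart. At DNAJA3 a second KO summit (9.17), at 4425188, lay beside the highest WT summit at 4425185. DNAJA4 had no gene-end summit, with the nearest 114555 bp away in WT and 17283 bp in KO.

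In the DNAJB family, DNAJB12, a J-domain protein of the endoplasmic reticulum membrane, held the highest-ranked site by mean rank. Its highest summits lay 18 bp apart, 107 bp after the start in WT (rank 517, −log10 q 31.4) and 125 bp after it in KO (rank 1921, 20.8). DNAJB6, an inhibitor of polyglutamine aggregation, ranked 842 in WT (25.3) and 1777 in KO (21.6), 30 bp apart. DNAJB14, a relative of DNAJB12, ranked 3690 (12.8) and 2841 (17.2), with both summits before the start. DNAJB4 ranked 6399 (8.70) and 2084 (19.9), also before the start and within 1 kb of FUBP1.

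In the DNAJC family, DNAJC25 and its readthrough shared their highest summits, 12 bp apart, at rank 846 in WT (−log10 q 25.2) and 1216 in KO (25.3). DNAJC8, which is linked to splicing, ranked 2608 (15.6) and 2722 (17.6). DNAJC2 (zuotin), the J-domain protein of the ribosome, ranked 2079 (17.2) and 3984 (14.3), with summits 102 and 78 bp after the start. Of the members in the promoter table, DNAJC4 was the 1 gene marked in both genotypes with no summit of either within 1 kb of a RefSeq start. Its summits, 108 bp from the 3′ end in WT (3.44) and 22 bp from it in KO (12.7), were also within 1 kb of VEGFB.

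Summits sat on the gene side of the start. Among members with a WDR5 summit within 1 kb of a RefSeq start, the nearest summit lay downstream of it in 36 of 45 in WT (80.0%) and 41 of 48 in KO (85.4%), against 77.2% and 76.7% of all such genes. The median offset was 160 bp in WT and 165 bp in KO, beside 166 and 167 bp over all genes. The first quartile was 89 bp and the third 214 bp in WT. The 2 genotypes gave nearly the same positions. The highest gene-end summits of the 45 members marked in both lay a median of 48 bp apart, beside 78 bp over all 9307 such genes. In 25 of the 45 (55.6%) they lay within 50 bp, against 40.1% over all genes, and in 5 (11.1%) over 500 bp apart, against 13.7%. HSPD1, HSPE1 and HSPE1-MOB4 each enter this median and these counts with the same summits, 48 bp apart. DNAJC25 and its readthrough likewise share theirs, 12 bp apart, so sites are counted more than once. DNAJC13, an endosomal J-domain protein, had summits 1 bp apart, at rank 930 in WT and 6372 in KO.

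**Figure D2:**
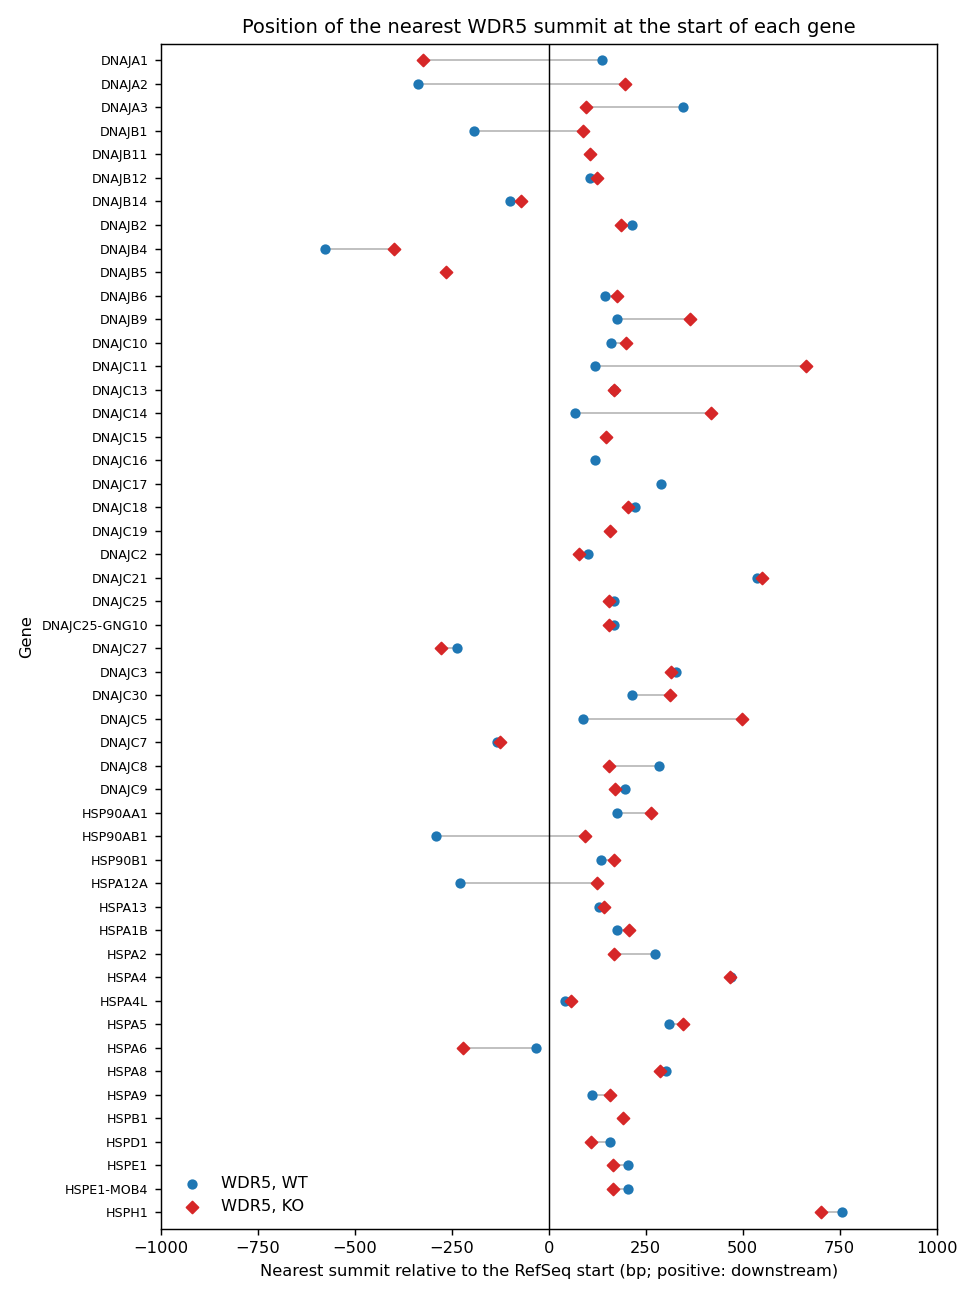
Distance in bp from the RefSeq start (x axis, positive values downstream) to the nearest WDR5 summit within 1 kb in WT (circles) and KO (diamonds), 1 gene to a line, with a grey line joining the genotypes. Most points lie to the right of 0, with medians of 160 bp in WT and 165 bp in KO, and HSPH1 lies farthest out at 756 and 702 bp.

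Chaperone genes often had a summit on either side of the start. A summit upstream and another downstream, both within 1 kb of the same RefSeq start, were called at 23 of the 45 members with a start summit in WT (51.1%) and at 19 of 48 in KO (39.6%). Over all genes with a start summit these shares were 22.4% in WT and 24.3% in KO. HSPA5, HSPA8, HSPA9, HSPD1, HSP90AA1, HSP90AB1 and DNAJB9 were among them in both genotypes. HSPD1, HSPE1 and HSPE1-MOB4 count as 3 members here on the same summits, and DNAJC25 and its readthrough as 2. A pair around any RefSeq start counted, so a gene with several starts had more chances. Of the members 14 had more than 1 start, and the like number over all genes was not computed. HSP90AB1 counted through its internal starts only. The count was made after summits of HSPA5 had been seen to lie in this way.

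The median percentile of the highest gene-end summit in its own list was 73.6 for members and 66.3 for all marked genes in WT, and 76.9 and 69.8 in KO. Among the 10% of summits with the highest score, WT held gene-end summits of 9 members (12.3%, against 8.02% of all genes) and KO of 13 (17.8%, against 9.49%). These members rest on 6 distinct summits in WT and 10 in KO, because HSPD1, HSPE1 and HSPE1-MOB4 share theirs, as do DNAJC25 and its readthrough. Of these members 8 were the same in both genotypes: DNAJB6, DNAJB12, DNAJC25 and its readthrough, HSPA4, HSPD1, HSPE1 and HSPE1-MOB4. DNAJC13 was added in WT, and DNAJA1, DNAJB4, DNAJB9, HSPA5 and HSPA9 in KO.

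The genes with a gene-end summit in KO and none in WT were DNAJB1, DNAJB5, DNAJB11, DNAJC15, DNAJC19 and HSPA2. DNAJC15, a J-domain protein of the mitochondrial inner membrane, had a KO summit 147 bp after its start (−log10 q 3.51, rank 16029), and the nearest WT summit lay 671757 bp away. DNAJC19, of the mitochondrial import motor, had a KO summit 158 bp after the nearest of its starts (2.67, rank 18303), with the nearest WT summit 70586 bp away. Both scores were below the median of the KO list, 6.28. DNAJB5 (Hsc40) had a KO summit 280 bp inside its gene end and 265 bp before its RefSeq start (8.85, rank 7688), with the nearest WT summit 31923 bp away. DNAJB11, a J-domain partner of HSPA5, had a KO summit 107 bp after its start (7.85, rank 8621), also within 1 kb of TBCCD1, with the nearest WT summit 3565 bp away. These 4 were the members with a KO summit and no WT summit at any gene end or RefSeq start.

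DNAJB1 (Hsp40), the main inducible J-domain partner of Hsp70, entered that class by a weak KO summit 827 bp from its 3′ end (−log10 q 2.04). At its internal start, 14518397 on chromosome 19, both genotypes had a summit, 268 bp after it in WT (9.99, rank 5475) and 115 bp after it in KO (18.5, rank 2463). At its outermost start, 14529271, only KO had a summit within 1 kb, 89 bp after it and as weak (2.04). By RefSeq starts, 5 of 66 members had a summit in KO alone (7.58%, against 6.92% of all genes) and 2 in WT alone (3.03%, against 3.38%). HSPB1 (Hsp27), a widely expressed small heat shock protein, was the fifth. It had a KO summit 191 bp after its start (6.24), while its WT summit (3.44) lay 1348 bp after the start, near the 3′ end.

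The genes with one in WT and none in KO were DNAJC16, DNAJC17 and HSPA12A. DNAJC16 had a WT summit 120 bp after its start (−log10 q 9.23, rank 6063), and the nearest KO summit lay 2754 bp away. DNAJC17, a splicing-related J-domain protein, had a WT summit 289 bp after its start (4.15), also within 1 kb of ZFYVE19. A weaker WT summit (2.73), at 40764334, lay 827 bp from the other end of the gene. The nearest KO summit of DNAJC17, at 40763870, lay 1291 bp from that other end and 43603 bp from the start. With a window of 2 kb DNAJC16 alone was left of these 3, and with 5 kb none was.

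The authors' deposited table of new WDR5 targets, which was chosen on these samples and so is not independent of the KO summits, held a transcript that starts within 1 kb of a RefSeq start of 5 of the 66 members (7.58%, against 8.43% of all genes). They were DNAJB1, DNAJB5, DNAJC15, DNAJC19 and DNAJC30, a mitochondrial protein. DNAJB5, DNAJC15 and DNAJC19 had a summit in KO alone. DNAJB11 did too but was not listed. DNAJC30 was listed although it had a summit in both genotypes, 214 bp after its start in WT (−log10 q 17.9, rank 1906) and 312 bp after it in KO (6.07, rank 11006). None of the 25 heat shock protein genes in the promoter table was listed (exact interval 0 to 13.7%). That interval holds the 8.43% of all genes, so the count cannot be told from the background. HSPA12B, HSPA14 and HSPB2 are not in the promoter table and could not be looked up.

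The 19 members with no WDR5 summit at a gene end were DNAJA4, DNAJB7, DNAJB8, DNAJB13, DNAJC5B, DNAJC5G, DNAJC6, DNAJC12, DNAJC24, DNAJC28, HSPA1A, HSPA1L, HSPA12B, HSPB2, HSPB3, HSPB6, HSPB7, HSPB8 and HSPB9. Some missed the 1 kb window by little. The nearest summit to DNAJB7 lay 1084 bp away in KO, that to HSPB6 1283 bp in KO and 1387 bp in WT, that to DNAJC6 1288 bp in KO and 1301 bp in WT, and that to HSPB9 1556 and 1586 bp. At DNAJC6 (auxilin), the neuronal uncoating factor of clathrin vesicles, this summit had a −log10 q of 14.7 in KO and 3.26 in WT. On the inner side of the window stood DNAJB1 at 827 bp in KO, HSPA12A at 796 bp in WT, and HSPH1 at 756 bp in WT and 702 bp in KO. HSPB8 was the most distant, with the nearest summit 473371 bp away in WT and 473363 bp in KO, and HSPB3 lay 61839 and 61492 bp from one. DNAJB8 (20225 and 18884 bp), DNAJB13 (12458 and 12422 bp), DNAJC5G (10139 and 10123 bp), DNAJC12 (32797 and 11629 bp), DNAJC24 (77294 and 75082 bp), DNAJC28 (8385 and 8470 bp), HSPB2 (23363 and 33306 bp) and HSPB7 (38068 and 38094 bp) had their nearest summits at these distances in WT and KO, and those of DNAJC5B lay at 11650 and 12444 bp.

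For EMBOW-F, none of the 73 members carried a summit within 1 kb of a gene end, where 3 counts of 73 would be 4.11%, and the share over all genes was 1.40%, below that limit. The count was too small to tell the members from other genes. The shortest distance was 38055 bp, at DNAJC19. DNAJC12 (55187 bp), HSPA13 (93935 bp) and DNAJB9 (96876 bp) were the only other members with an EMBOW-F summit within 100 kb, where 13.1% of all genes had one. The median distance was 1859721 bp for members and 1546767 bp for all genes. HSPA4, HSPA5 and HSPD1, which carried high-ranked WDR5 summits, lay 1202861, 2508631 and 546453 bp from the nearest one.

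**Figure D3:**
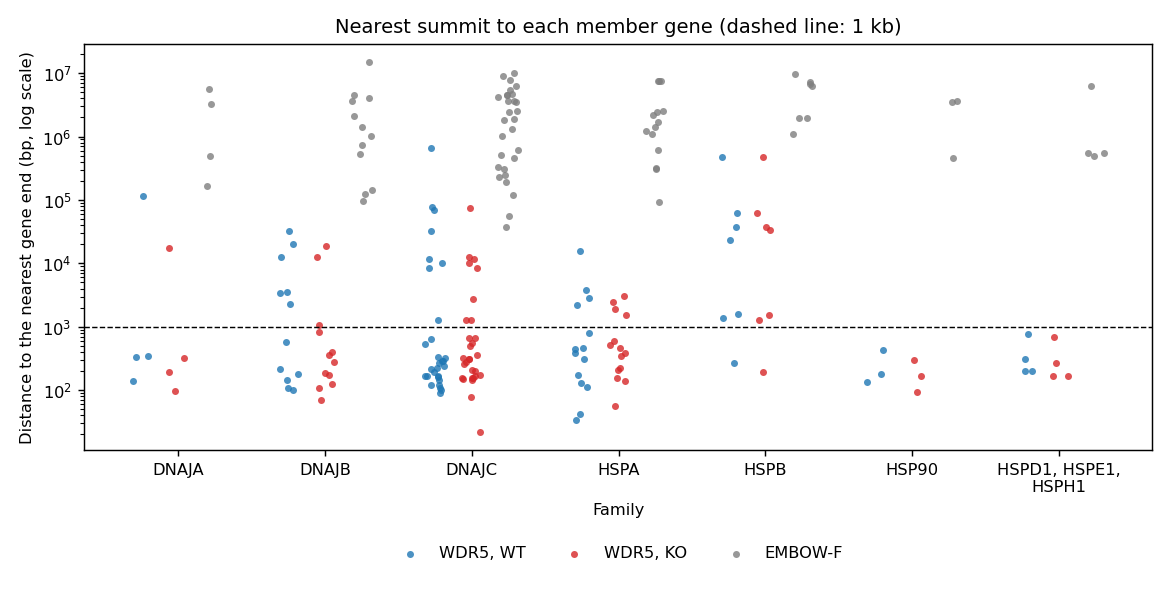
Distance in bp from each gene to the nearest summit (y axis, log scale) by family (x axis) for WDR5 in WT, WDR5 in KO and EMBOW-F, 1 point per gene and list, with the 1 kb window dashed. All EMBOW-F points lie at 38055 bp or more, and the HSPB points for WDR5 lie mostly above the dashed line.

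CpG content was higher at the promoters of marked than of unmarked genes. A single window was used per member, at its outermost start where it had several, while the class counts a summit at any of its starts. DNAJB1 was thus classed as marked in both genotypes, although only KO had a summit within 1 kb of the start used. Over the 300 bases from 250 before the RefSeq start, the ratio of observed to expected CpG dinucleotides had a median of 0.895 in the 43 members with a start summit in both genotypes and 0.482 in the 16 with none. The medians over all genes in these classes were 0.869 and 0.328. The 5 members marked in KO and not in WT had a median of 0.789 and the 2 of the converse class 0.827, beside 0.808 and 0.792 over all genes. The classes of members overlapped, since DNAJC14 was marked in both genotypes at 0.346 and HSPB9, DNAJC4 and DNAJC28 were unmarked at 0.901, 0.825 and 0.729. These values describe promoters and carry no test.

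**Figure D4:**
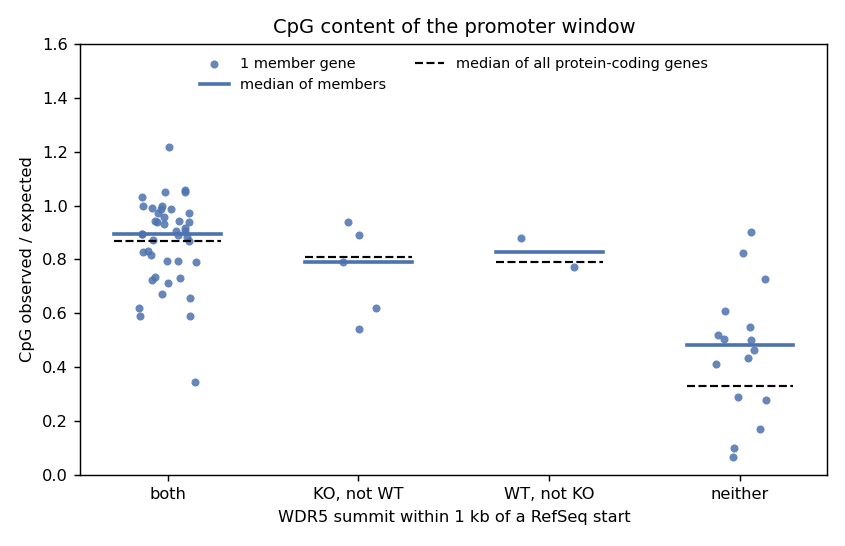
Observed over expected CpG ratio of the promoter window (y axis) for members by WDR5 summit class at any RefSeq start (x axis), with the median of the members (solid) and of all protein-coding genes in the class (dashed). The median was 0.895 in members marked in both genotypes and 0.482 in unmarked members, and single genes overlapped.

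The ratio ran from 0.067 at DNAJB7 to 1.216 at DNAJA3. Printed here are 3 promoters from between these values, with CpG dinucleotides in capitals. They do not show the overlap of the classes. The 250 bases printed are the first part of each 300-base window, and the ratios are those of the whole window. HSPA4 (chr5:133051763-133052012, ratio 0.959) had the highest-ranked summits of the members, DNAJC15 (chr13:43023336-43023585, ratio 0.891) had a KO summit alone, and HSPB3 (chr5:54455449-54455698, ratio 0.288) had none within 1 kb.
HSPA4: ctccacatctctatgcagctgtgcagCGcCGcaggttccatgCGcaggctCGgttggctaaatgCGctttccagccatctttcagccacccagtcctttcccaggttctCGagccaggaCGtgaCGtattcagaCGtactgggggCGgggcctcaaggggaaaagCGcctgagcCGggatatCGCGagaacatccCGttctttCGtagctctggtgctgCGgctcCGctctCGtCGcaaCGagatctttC
DNAJC15: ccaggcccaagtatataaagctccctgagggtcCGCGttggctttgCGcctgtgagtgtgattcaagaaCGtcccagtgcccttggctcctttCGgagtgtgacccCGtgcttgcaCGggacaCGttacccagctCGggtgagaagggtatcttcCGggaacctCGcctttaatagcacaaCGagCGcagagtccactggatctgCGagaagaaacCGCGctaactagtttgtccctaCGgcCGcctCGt
HSPB3: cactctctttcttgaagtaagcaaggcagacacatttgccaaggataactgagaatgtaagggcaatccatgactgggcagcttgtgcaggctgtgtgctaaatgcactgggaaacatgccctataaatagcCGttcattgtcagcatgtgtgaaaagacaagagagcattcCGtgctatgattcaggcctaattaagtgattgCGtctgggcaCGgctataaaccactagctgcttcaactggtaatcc

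Of the co-chaperones, regulators and other chaperones outside the naming rule, 43 of 49 had a gene-end WDR5 summit in WT and 44 in KO, 42 of them in both. Over all genes 50.0% had one in WT, 53.4% in KO and 46.4% in both. BAG6, a holdase for membrane proteins, and SUGT1, a co-chaperone of HSP90, had a summit in KO alone, with −log10 q of 8.05 and 4.39, and HSF4, a heat shock factor of the lens, in WT alone (3.23). CCT7 and CCT4, subunits of the cytosolic chaperonin, had the highest ranks, 10 and 20 in WT and 1 and 25 in KO. CRYAB, CRYAA, CLPB and HSPBP1 were unmarked. CRYAB encodes a small heat shock protein and lies next to HSPB2, which was unmarked too. None of the 49 had an EMBOW-F gene-end summit, which 1.40% of all genes had. The J-domain genes GAK, SEC63 and HSCB, which lack a DNAJ symbol, were marked in both genotypes.

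In the series as a whole, the lists held 17660 WT, 21055 KO and 93143 EMBOW-F summits with median −log10 q of 6.53, 6.28 and 3.25, and read depth is unknown because the lists hold no counts. Of 6 genes of the kidney lineage, 4 had a WT and 3 a KO gene-end summit (PAX2 and PAX8 had none). Of 10 genes of other tissues 1 had one in each genotype, APOA1. The shares over all genes were 50.0% in WT and 53.4% in KO, and 6 kidney genes are too few to be told from them. WDR5 summits do not report EMBOW, so the knockout could not be checked in these files.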

How the data were processed

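The files used were 3 deposited lists of summits, 1 bp wide and on hg38 per the submitters' processing notes, and the authors' deposited list of 18665 transcripts. The same notes name Bowtie2 2.4.5, MACS2 2.2.7.1 and deepTools 3.5.1 without a role. The deposited score has the form of a −log10 q value, as read from its lowest value of 1.30 to 1.31 (a q of 0.05), and it was used within a list only. The sources used here do not name the input behind each list or the treatment of reads with several matches. The EMBOW-F list was matched to the only FLAG precipitation in the labels. In the transcript list, 1 chromosome name was repaired. The other libraries of the 10 samples were not analysed here.

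A gene was marked when a summit lay within 1 kb of either end of its RefSeq span (GRCh38.p14), or, as an alternative, of a RefSeq start in the promoter table (66 of 73 members). Distances were computed with Python 3.11.15, numpy 2.4.6 and pandas 2.3.3, exact (Clopper-Pearson) intervals with scipy 1.17.1, the promoter alignment with Biopython 1.88 and figures with matplotlib 3.10.9. The gene-end step was tested on simulated summits and recovered 1012 of 1012 planted genes with 0 mismatches. With 1 library per group, no p-value was computed. Alternatives were other windows (500 bp, 2 kb, 5 kb), a q of 1e-05, lists of equal length, starts only, no readthrough genes and partner distances of 250 and 1000 bp. A longer or deeper list marks more genes, and numbers were not corrected for depth, which is unknown.

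The members and lists were chosen with earlier results of these data known. Named were all HSPA, HSPD1, HSPE1, HSPH1, HSP90A and HSP90B genes, the 4 highest by mean rank in DNAJA, DNAJB, DNAJC and HSPB, every gene marked in 1 genotype and the unmarked ones. Others named (DNAJB9, DNAJC13, DNAJC14 and DNAJC30), the lists by compartment, the run of heat shock units and the count of summits on either side of a start were chosen after values were seen. The planned protein motifs were not analysed here. An item of the planned lists is not reported here.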

Additional observations from a re-analysis of the deposited data

How the results depend on the processing

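The count of members marked in WT and not in KO depended on the settings. It was 3 as reported (3.51% of all genes), 5 with a window of 500 bp (5.81%), 1 with 2 kb (2.93%) and 0 with 5 kb (2.88%). It was 5 with a q of 1e-05 or less (4.78%) and 5 with WDR5 lists of equal length (4.79%). The share over all genes moved in the same direction as the count at each setting, and the cause was not tested. DNAJC16 was in the class under each of these but the 5 kb window. The count marked in KO and not in WT stayed between 4 and 8 around the 6 reported (5.79 to 9.55% of all genes), though the genes changed. At a q of 1e-05 or less 2 of the 6 remained (DNAJB5 and DNAJB11), and with 5 kb 3 remained (DNAJB5, DNAJC15 and DNAJC19). DNAJB5 was in the class under every alternative run. Counts marked in WT (42 to 57), in KO (43 to 61) and in both (37 to 57) stayed within 1.5 times the reported 48, 51 and 45, and EMBOW-F stayed at 0. The shares over all genes were 39.7 to 57.0% in WT, 44.5 to 60.6% in KO, 34.9 to 54.1% in both and 0.19 to 3.63% for EMBOW-F. With gene ends and every RefSeq start together, chosen after seeing the data, the counts were 50 in WT, 52 in KO and 48 in both. The shares over all genes at that setting were 53.6%, 57.2% and 50.3%. Of the members with a KO summit, 45 had a WT summit within 500 bp and 38 within 250 bp. The matching shares over all genes were not computed, so these counts have no background and describe the members only. No paired analysis was possible because each group has 1 library. Neither replicate error nor depth can be judged from these lists.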
